A study of Mus musculus with 6 samples.

Results

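The endoplasmic reticulum (ER) stress and unfolded protein response genes of the retinal pigment epithelium (RPE) were examined in Abca4-/- (Abca4KO) and wild-type (WT) mice. The set held 34 gene symbols, chosen by name as ER chaperones, oxidoreductases, genes of ER-associated degradation, and the sensors, transcription factors and outputs of the IRE1, PERK and ATF6 arms. These symbols matched 35 of the 54532 rows of the deposited count table, because Ddit3 is listed under a pair of identifiers, of which one held 0 counts. All 34 symbols passed the filter on low counts and were among the 17340 genes tested. Bulk RNA sequencing was done on 3 Abca4KO mice (Jackson line Abca4tm1Ght/J) and 3 WT mice (Jackson line 129S1/SvlmJ), with each mouse a replicate, 5 h after light onset. Both lines carried the Leu450 form of Rpe65 and were kept on a standard diet in cyclic light. Line and genotype changed together, so an effect of Abca4 and an effect of the line cannot be told apart. Ages and sexes are not given in the sources used here.

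The unfolded protein response couples the load of unfolded protein in the ER to gene expression. The chaperone BiP, encoded by Hspa5, holds the membrane sensors IRE1 (Ern1), PERK (Eif2ak3) and ATF6 inactive until unfolded proteins draw it away. IRE1 then splices the Xbp1 mRNA, PERK phosphorylates the translation factor eIF2alpha so that ATF4 is translated, and ATF6 is cut to release a transcription factor, and the target genes restore folding, degrade misfolded proteins or, through CHOP (Ddit3), promote cell death. The RPE secretes protein and digests photoreceptor outer segments every day, and Abca4 encodes a retinoid transporter whose loss leads to bisretinoid pigment in the RPE. Splicing of Xbp1, phosphorylation of PERK and cleavage of ATF6 are not measured by gene counts.

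Each library matched its genotype label. Abca4 had 32.6, 39.1 and 36.8 CPM (counts per 1000000 counts of the scaled library) in the Abca4KO libraries, against 955, 932 and 968 CPM in the WT libraries (adjusted p = 4.48e-06, edgeR's quasi-likelihood test). Total counts lay between 17047286 and 19841307 per library. The 12 RPE markers, among them Rpe65, Rlbp1 and Best1, were all detected and summed to between 33950 and 43151 CPM. Some libraries stood apart. WT 2 had 2247 summed CPM of 12 interferon response genes, against 204.7 to 305 CPM in the other libraries, and Abca4KO 1 had 3479 summed CPM of 12 rod photoreceptor markers, against 703 to 1831 CPM in the others. Results are therefore also given without these libraries where this changed them.

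Promoters of the set are shown because a shared element marks the genes that ATF6 and XBP1 are known to control in human and mouse cells. The ER stress response element has the letters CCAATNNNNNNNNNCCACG. On either strand it was found in 9 of the 30 members with a RefSeq promoter window (GRCm38.p6, 250 bases before to 50 bases after the gene start), and in 0.119% of all 32851 such windows. Counted by gene, as for the members, the share was 0.137% of all genes with a window. The 300-base window of Hspa5, chr2:34771840-34772139 on the plus strand, holds it 65 bases before the RefSeq start, with the CCAAT and CCACG parts in capitals.
Hspa5: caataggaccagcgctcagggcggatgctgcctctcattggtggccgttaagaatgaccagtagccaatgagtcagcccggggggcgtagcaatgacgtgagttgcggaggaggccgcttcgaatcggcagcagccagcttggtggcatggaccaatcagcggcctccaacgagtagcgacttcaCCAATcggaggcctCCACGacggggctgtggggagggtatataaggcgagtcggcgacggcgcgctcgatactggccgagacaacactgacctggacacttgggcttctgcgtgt

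The sites of the other 8 members are set out with the same parts in capitals, read in the direction of the element. They span chaperone genes, lectin chaperones, an oxidoreductase, a ubiquitin ligase and a derlin.
Hsp90b1, chr10:86705638-86705656, minus strand: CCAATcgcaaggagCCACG
Hsp90b1, chr10:86705533-86705551, plus strand: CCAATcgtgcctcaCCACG
Dnajc3, chr14:118937827-118937845, plus strand: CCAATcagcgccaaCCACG
Creld2, chr15:88819520-88819538, minus strand: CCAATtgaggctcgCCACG
Calr, chr8:84847075-84847093, plus strand: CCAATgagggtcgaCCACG
Canx, chr11:50325800-50325818, minus strand: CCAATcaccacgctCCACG
Pdia6, chr12:17266491-17266509, plus strand: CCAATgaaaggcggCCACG
Syvn1, chr19:6046532-6046550, plus strand: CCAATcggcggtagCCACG
Derl3, chr10:75893242-75893260, minus strand: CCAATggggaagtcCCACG

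A second group of sites marks the arm of ATF4, which binds the element TGATGNAAN. It was found in 4 of the 30 members with a window, Trib3, Chac1, Asns and Herpud1. The share was 4.5% of all genes with a window and 3.95% of all windows. The sites follow with 6 bases on either side and the fixed letters of the element in capitals.
Trib3, chr2:152344033-152344053, plus strand: cccggcTGATGtAAacctgag
Chac1, chr2:119351042-119351062, minus strand: caggagTGATGcAAcggcagg
Asns, chr6:7693218-7693238, minus strand: gccacaTGATGaAActtcccg
Herpud1, chr8:94386310-94386330, minus strand: gcgggcTGATGcAAcccgccg
The related ER stress response element II, which has ATTGG and CCACG with 1 base between them, was added after the windows had been read. It was found in Herpud1 and Dnajb11, in 0.0444% of all genes with a window and in 0.0365% of all windows.
Herpud1, chr8:94386373-94386391, plus strand: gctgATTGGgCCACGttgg
Dnajb11, chr16:22857848-22857866, plus strand: ggcgATTGGcCCACGcctg
 The core TGACGTGG was found in no member's window, in 0.714% of all genes with a window and in 0.676% of all windows. These matches describe letters in the windows and not measured binding.

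No gene of the set passed the threshold between Abca4KO and WT RPE. Of the 34 members, 0 had an adjusted p under 0.05 in edgeR's quasi-likelihood test, where 8 of the 17340 tested genes did (0.0461%), and the smallest adjusted p of a member was 0.701. At an unadjusted p under 0.05 there was 1 member, Dnajc3, while 7.02% of all tested genes reached this. DESeq2 also gave 0 members past the adjusted threshold, which 114 of the 17340 tested genes passed there. It gave 1 member at an unadjusted p under 0.05, beside 6.42% of all tested genes. The log2 fold changes of the members, Abca4KO over WT, ran from -0.33 for Derl3 to 0.63 for Trib3 with a median of 0.04, beside a median of -0.01 over all tested genes. In 32 of the 34 the log2 fold change was under 0.25 in size. A total of 23 members had a positive log2 fold change, where 47.8% of all tested genes did. This count depended on which library was left out. It was 16 without Abca4KO 2 (median -0.00883) and 14 without WT 3 (median -0.00996). It was 22 without Abca4KO 1, 21 without Abca4KO 3, 20 without WT 1 and 22 without WT 2.

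The intervals show how large a difference these libraries leave room for. In 28 of the 34 members the 95% interval of the fold change lay within 1.5-fold in either direction. The 6 whose interval reached further were Sdf2l1, Edem1, Derl3, Trib3, Chac1 and Asns, of which Derl3, Trib3, Chac1 and Asns averaged under 10 CPM. In 22 members the genotype means differed by less than the pooled standard deviation within genotypes. In 32 members the fold change between genotypes was smaller than the largest fold between a pair of libraries of the same genotype, and the exceptions were Dnajc3 and Trib3. The largest fold between single libraries readily exceeds a fold between group means. No share over all tested genes was computed for these counts of 28, 22 and 32, so they describe intervals and spread only. Libraries of the genotypes did not overlap in 4 members (12.8% of all tested genes), with Herpud1 and Trib3 higher in Abca4KO (5.93% of all tested genes) and Dnajc3 and Pdia4 lower (6.85%).

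**Figure D1:**
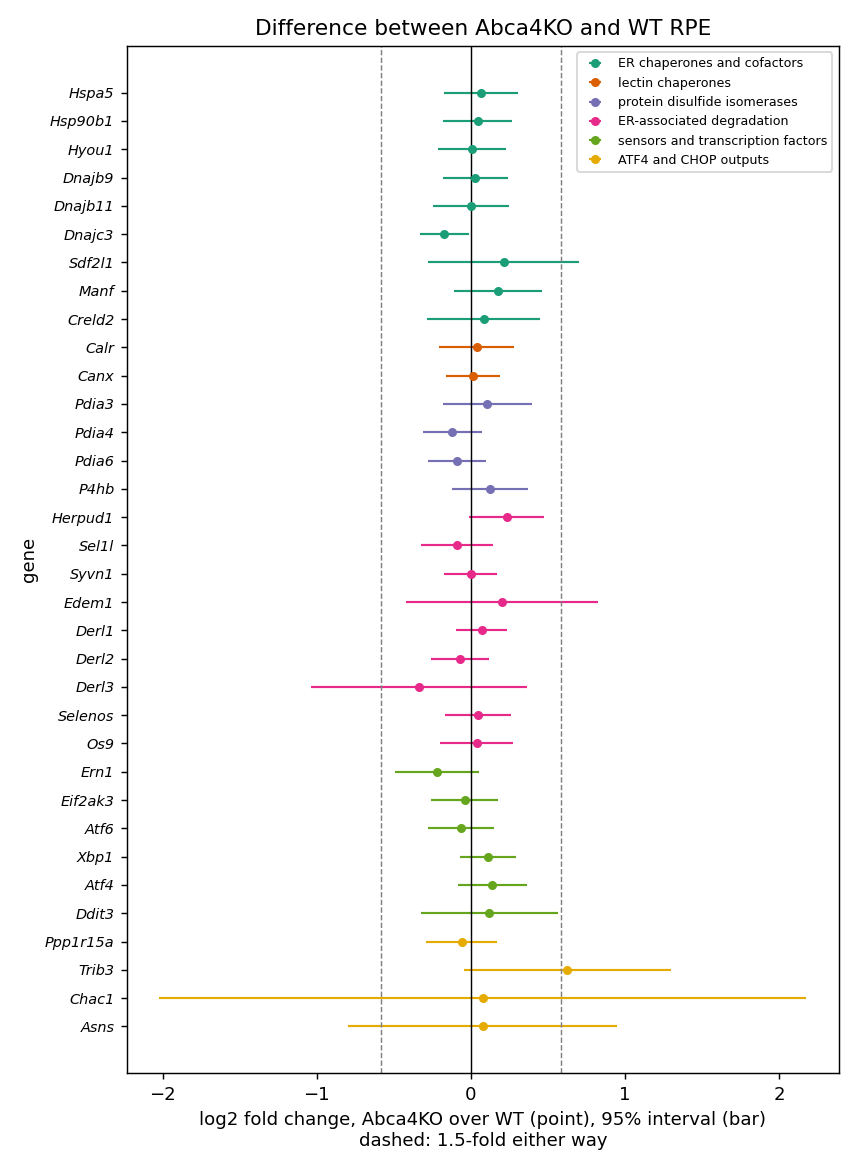
Log2 fold change of each ER stress gene, Abca4KO over WT (horizontal axis, log2 scale), with its 95% interval from edgeR's quasi-likelihood fit. Colours mark the roles and dashed lines a 1.5-fold difference either way. Of the 34 intervals, 28 lie between the dashed lines and 33 include 0, the exception being Dnajc3.

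Per kilobase of gene length, the most abundant members were chaperones and a disulfide isomerase. Calr, the lectin chaperone calreticulin, averaged 159 CPM per kilobase in Abca4KO and 155 CPM per kilobase in WT. Pdia3, the disulfide isomerase that works with calreticulin and calnexin, had 138 and 128 CPM per kilobase in Abca4KO and WT, Hspa5 had 121 and 116, and Canx (calnexin) had 119 and 118. P4hb, Os9 and Hsp90b1 followed at between 81.6 and 97.1 CPM per kilobase. The sensors were far lower, with Ern1, Atf6 and Eif2ak3 between 6.21 and 8.79 CPM per kilobase in either genotype. At the bottom stood Asns, Derl3, Trib3 and Chac1, each under 2 CPM per kilobase in both genotypes. The libraries of neighbours in this order overlapped in 28 of 33 pairs. The 5 pairs without overlap were Canx above P4hb, Hsp90b1 above Pdia6, Dnajb9 above Dnajb11, Ppp1r15a above Eif2ak3 and Derl2 above Asns. The order depends on the gene length given with the counts. By mean CPM alone Canx was highest, at 557 in Abca4KO and 552 in WT. Hspa5 followed at 512 and 489 CPM and Calr at 459 and 446 CPM.

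**Figure D2:**
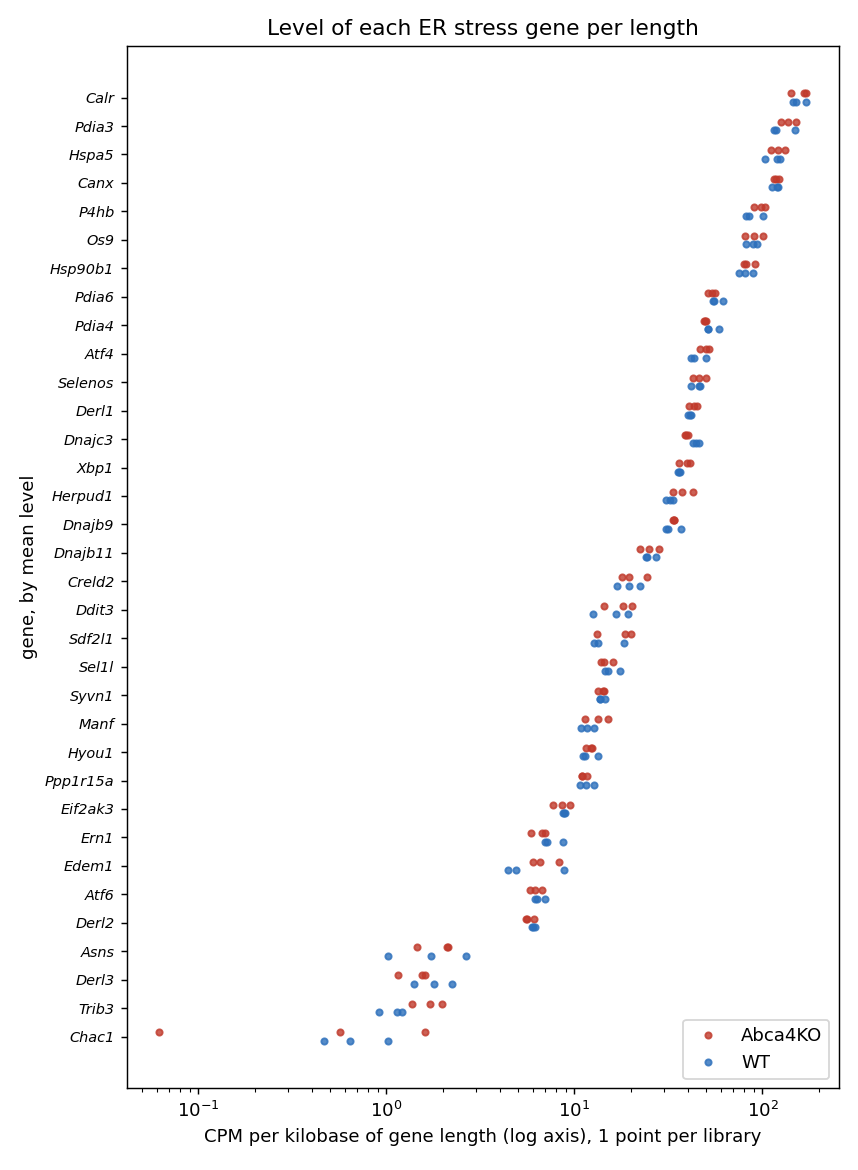
Level of each ER stress gene in CPM per kilobase of gene length (horizontal log axis), with 1 point per library, Abca4KO in red above WT in blue. Points of the genotypes intermix for most genes, from Calr at about 157 CPM per kilobase over all libraries to Chac1 at 0.727.

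Among the 9 chaperones and their cofactors, 8 had positive log2 fold changes and 1 a negative one, with a median of 0.04. Hspa5 (BiP, the central ER chaperone of the Hsp70 family; chromosome 2, 34771970 to 34777547) had 468, 554 and 514 CPM in the Abca4KO libraries, against 503, 525 and 438 CPM in the WT libraries. Both the highest value and the second lowest were Abca4KO libraries, so the genotypes overlapped. The log2 fold change was 0.07 (SE 0.10, 95% interval -0.17 to 0.31, adjusted p = 0.929). Hsp90b1, the ER member of the Hsp90 family, had 322, 368 and 328 CPM in Abca4KO and 325, 359.6 and 302 CPM in WT, with a log2 fold change of 0.04 (95% interval -0.18 to 0.27). Hyou1, a nucleotide exchange factor for BiP, averaged 86.99 ± 3.497 CPM in Abca4KO and 86.6 ± 9.01 CPM in WT (SD, n = 3 each). Its range in WT, 80.5 to 97.0 CPM, enclosed all 3 Abca4KO values.

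Dnajc3 (p58IPK, a BiP co-chaperone that also inhibits PERK; chromosome 14, 118937976 to 118981697) came nearest to a difference in this group. It had 202, 206 and 200.2 CPM in the Abca4KO libraries, against 220.1, 229 and 236 CPM in the WT libraries. Every Abca4KO library was lower than every WT library, by little. The log2 fold change was -0.17 (SE 0.07, 95% interval -0.33 to -0.01, adjusted p = 0.701). Over the other settings tried its log2 fold change stayed between -0.197 and -0.143, with adjusted p-values between 0.252 and 0.981.

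In the other co-chaperones the libraries of the genotypes overlapped. Dnajb9 (ERdj4, which returns IRE1 to its inactive state) averaged 85.7 ± 0.618 CPM in Abca4KO and 84.1 ± 8.47 CPM in WT (SD, n = 3 each). Dnajb11 (ERdj3) averaged 81.4 ± 9.12 CPM in Abca4KO and 81.3 ± 5.88 CPM in WT (SD, n = 3 each). Sdf2l1, which forms a complex with ERdj3, had 14.6, 22.0 and 20.5 CPM in Abca4KO and 14.1, 20.3 and 14.9 CPM in WT. The low and high values of Sdf2l1 occurred in both genotypes, and its interval was wide (log2 fold change 0.21, 95% interval -0.28 to 0.70).

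Manf and Creld2 encode small ER proteins that are induced by ER stress, of which MANF can be secreted. Manf had 40.3, 53.3 and 47.1 CPM in Abca4KO, against 41.3, 44.7 and 38.4 CPM in WT (log2 fold change 0.18, 95% interval -0.11 to 0.46, adjusted p = 0.812). Its annotated span contains Rbm15b, with 64.7% as many counts, and overlaps Dcaf1, with 61.5% as many, so its count is uncertain. Creld2 had 24.5, 33.2 and 26.8 CPM in Abca4KO and 26.5, 30.4 and 23.0 CPM in WT. In both genes replicate 2 was the highest library of each genotype.

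**Figure D3:**
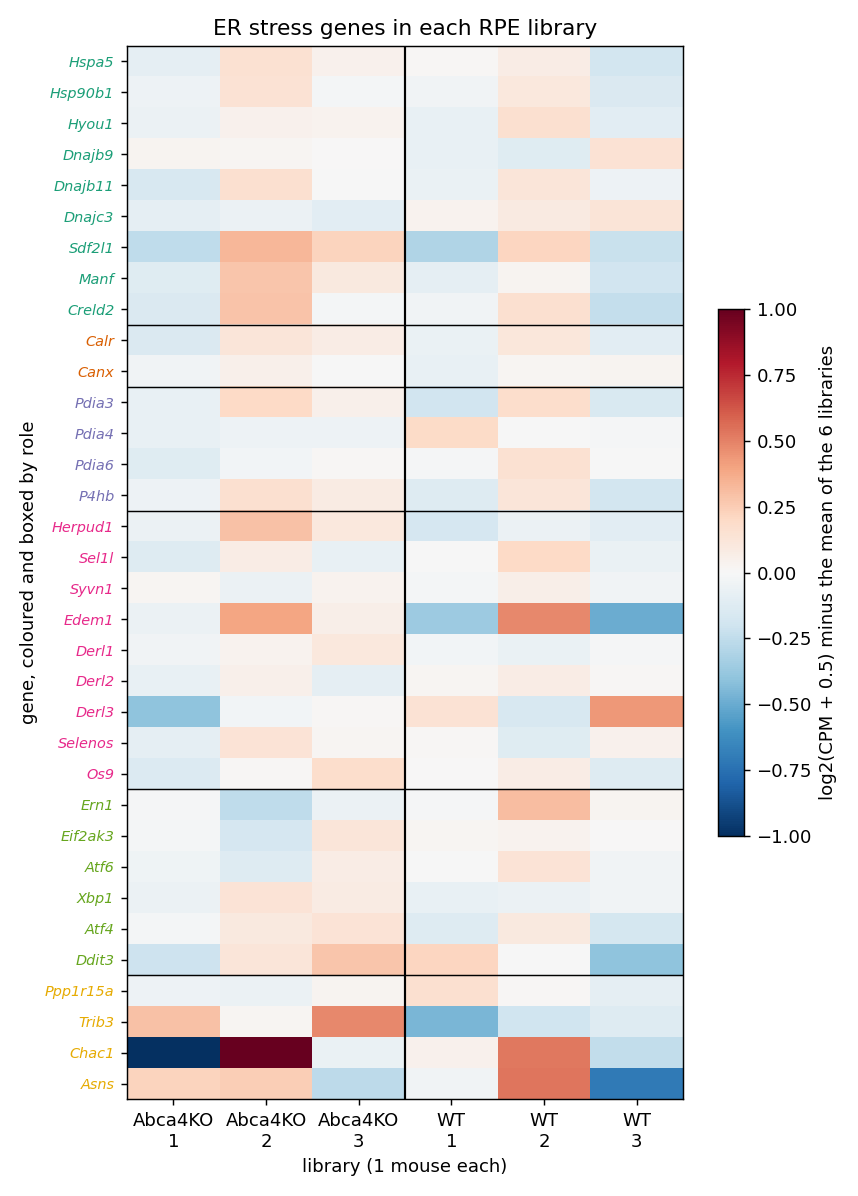
Each ER stress gene (rows, coloured and boxed by role) in each library (columns, Abca4KO left and WT right), as log2(CPM + 0.5) minus the gene's mean over the 6 libraries. Colours stop at 1 either way, which Chac1 exceeds. Abca4KO 2 and WT 2 are red in most folding genes and Abca4KO 1 and WT 3 are blue, so the stripes run with libraries of both genotypes.

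The lectin chaperones hold glycoproteins until they are folded, and neither passed the threshold. Calr had 408, 492 and 476 CPM in Abca4KO, against 432, 488 and 419 CPM in WT (log2 fold change 0.04, 95% interval -0.20 to 0.28). Canx had 542, 575 and 554 CPM in Abca4KO, against 527, 563 and 566 CPM in WT (log2 fold change 0.01, SE 0.07, 95% interval -0.16 to 0.19). The interval of Canx was among the narrowest of the set, at 0.895-fold to 1.14-fold.

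The 4 disulfide isomerases, which form and rearrange disulfide bonds, had positive and negative log2 fold changes in equal number. Pdia3 had 393, 474 and 429 CPM in Abca4KO, against 363, 468 and 373 CPM in WT, and P4hb had 257, 296 and 281 CPM in Abca4KO, against 243, 289 and 234 CPM in WT. Their log2 fold changes were 0.11 and 0.12, with SEs of 0.12 and 0.10. Pdia4 had 118, 119 and 119.6 CPM in Abca4KO, against 142, 123.2 and 123.0 CPM in WT, so that the genotypes were separate by a narrow margin set by WT 2 and WT 3 (log2 fold change -0.12, SE 0.08, adjusted p = 0.811). Pdia6, whose product also attenuates IRE1 in mammalian cells, averaged 201 ± 9.22 CPM in Abca4KO and 214 ± 14.04 CPM in WT (SD, n = 3 each).

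Of the 9 genes of ER-associated degradation, 5 had positive and 4 negative log2 fold changes. Their median was 0.04. Herpud1 (HERP, a membrane protein that organises the degradation complex; chromosome 8, 94386438 to 94395377) had the largest positive value among them. It had 77.6, 99.5 and 87.1 CPM in the Abca4KO libraries, against 71.9, 77.6 and 75.4 CPM in the WT libraries. Abca4KO 1 and WT 2 were equal to the printed digits, and the other Abca4KO libraries were clearly above all WT libraries. The log2 fold change was 0.23 (SE 0.10, 95% interval -0.01 to 0.48, adjusted p = 0.716), and it stayed positive in every setting tried, between 0.137 and 0.328.

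In the core of the retrotranslocation complex the libraries of the genotypes overlapped. Syvn1 (HRD1, the ubiquitin ligase) had 67.3, 63.9 and 68.2 CPM in Abca4KO, against 65.4, 69.3 and 64.9 CPM in WT, and its adaptor Sel1l averaged 126 ± 9.25 CPM in Abca4KO and 134 ± 13.3 CPM in WT (SD, n = 3 each). Syvn1 overlaps Mrpl49 on the opposite strand, which had 80.4% as many counts, so its count is uncertain. The lectin gene Os9, which delivers misfolded glycoproteins to that complex, averaged 238 ± 25.6 CPM in Abca4KO and 232 ± 16.2 CPM in WT, and Selenos, a selenoprotein that recruits the p97 ATPase, averaged 68.3 ± 5.39 CPM in Abca4KO and 66.1 ± 4.05 CPM in WT (SD, n = 3 each).

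The derlins, which line the path of exported proteins, differed in level more than between genotypes. Derl1 had 42.97 CPM per kilobase in Abca4KO and 40.95 in WT, whereas Derl2 had 5.75 in Abca4KO and 6.04 in WT and Derl3 had 1.43 in Abca4KO and 1.81 in WT. The log2 fold changes were 0.07 (SE 0.07) for Derl1, -0.07 (SE 0.08) for Derl2 and -0.33 (SE 0.30) for Derl3. Derl2 overlaps Mis12, which had 39.0% as many counts, and its count is uncertain. Edem1, which trims mannose from misfolded glycoproteins, was among the most variable members, at 39.0, 53.6 and 42.4 CPM in Abca4KO, against 31.5, 57.0 and 28.7 CPM in WT. The value in WT 2 was near that of Abca4KO 2, and the remaining WT libraries lay below all others.

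The sensor genes had negative and the transcription factor genes Xbp1, Atf4 and Ddit3 positive log2 fold changes, and none passed the threshold. Ern1 had 56.8, 47.9 and 54.7 CPM in Abca4KO, against 56.7, 70.8 and 58.1 CPM in WT (log2 fold change -0.22, SE 0.12, adjusted p = 0.761). Abca4KO 1 was level with WT 1, and WT 2 was the highest. Eif2ak3 averaged 51.6 ± 5.11 CPM in Abca4KO and 52.997 ± 0.498 CPM in WT, and Atf6 averaged 57.4 ± 4.20 CPM in Abca4KO and 59.95 ± 3.79 CPM in WT (SD, n = 3 each). Xbp1, whose spliced form drives chaperone and degradation genes, had 117.0, 134 and 128.8 CPM in Abca4KO, against 115.6, 117.0 and 118.6 CPM in WT (log2 fold change 0.11, SE 0.08, adjusted p = 0.812). The total count does not separate its spliced and unspliced forms.

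Atf4, whose protein is controlled mainly through translation, had 109.3, 118.6 and 122.0 CPM in Abca4KO, against 101.4, 118.5 and 98.0 CPM in WT (log2 fold change 0.14, SE 0.10, adjusted p = 0.818). WT 2 was as high as the Abca4KO libraries. Ddit3 (CHOP, a transcription factor of the cell death branch) had 24.7, 31.0 and 34.6 CPM in Abca4KO, against 33.1, 28.4 and 21.4 CPM in WT, a spread within either genotype that exceeded the difference between them. It overlaps Mars on the opposite strand, with 97.7% as many counts, and its own second identifier between 127290829 and 127293753 on chromosome 10, so its count is uncertain.

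Of the 4 outputs of ATF4 and CHOP, all but Ppp1r15a averaged under 10 CPM. Trib3 (a pseudokinase that restrains ATF4 and CHOP; chromosome 2, 152337422 to 152344032) had 3.60, 2.89 and 4.18 CPM in the Abca4KO libraries, against 1.94, 2.42 and 2.56 CPM in the WT libraries, from 56 to 72 counts in Abca4KO and 37 to 47 in WT. All Abca4KO libraries lay above all WT libraries. The log2 fold change of 0.63 (SE 0.29, 95% interval -0.05 to 1.30, adjusted p = 0.718) was the largest of the set, at 1.54-fold, and ran from 0.494 to 0.841 over the other settings.

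Ppp1r15a (GADD34, which restores translation by dephosphorylating eIF2alpha) averaged 32.9 ± 1.08 CPM in Abca4KO and 34.3 ± 2.98 CPM in WT (SD, n = 3 each). Asns, which makes asparagine, had 5.73, 5.83 and 3.95 CPM in Abca4KO, against 4.71, 7.25 and 2.78 CPM in WT. Chac1, which degrades glutathione, had 2, 51 and 16 counts in Abca4KO and 20, 31 and 14 counts in WT, so that Abca4KO held both the lowest and the highest library. No difference in Chac1 was detectable, with a 95% interval of the fold change from 0.247 to 4.51 that includes the spread between mice. A floor of 3 counts, which covers counting error only, equals 0.152 to 0.174 CPM, and Abca4KO 1 lay below it.

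Many of the genes were highest in the same library of each genotype. The 34 members summed to 4441, 4997 and 4811 CPM in Abca4KO and 4536, 4979 and 4437 CPM in WT, or 4750 ± 283.0 and 4651 ± 288 CPM (SD, n = 3 each). Abca4KO 2 was the highest Abca4KO library in 20 of the 34 members (36.2% of all tested genes) and Abca4KO 1 the lowest in 24 (37.0%). WT 2 was the highest WT library in 23 of the 34 (39.8% of all tested genes) and WT 3 the lowest in 20 (34.1%). Among the 15 chaperones, lectins and disulfide isomerases, Abca4KO 2 was highest in 12 and WT 2 in 11.

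Markers of other cells ran along with this order, as was seen after the values were known. From the highest to the lowest library by summed members, the order was Abca4KO 2, WT 2, Abca4KO 3, WT 1, Abca4KO 1 and WT 3. The 12 macrophage and microglia markers had 1460, 1623, 1223, 1063, 1024 and 866 summed CPM in that order, and the 12 rod markers had 1055, 703, 1174, 1831, 3479 and 1685. Macrophage markers thus ranked the libraries nearly as the ER stress genes did, and rod markers nearly in reverse. The interferon response genes ranked the libraries as the macrophage markers did. Of the macrophage markers, 8 had positive and 4 negative log2 fold changes. In the order of the summed members, the 12 plasma and B cell markers had 647, 128, 422, 93.2, 82.2 and 35.7 summed CPM. Of the 10 tested, 8 had positive and 2 negative log2 fold changes, from -1.742 to 3.235. In that order the 12 RPE markers had 39620, 33950, 42065, 41599, 41492 and 43151. The ratio of mean summed levels, Abca4KO over WT, was 4.48 for the plasma and B cell markers and 1.35 for the rod markers. It was 1.04 for the macrophage and the RPE markers, 1.01 for Muller glia markers and 0.283 for the interferon response genes. Libraries of the genotypes overlapped in each of these lists. Rlbp1 is in both the RPE and the Muller glia list, so the Muller glia sum does not measure those cells alone. Summed levels of 3 other marker lists averaged higher in Abca4KO. The 12 endothelial markers, of which all had positive log2 fold changes (median 0.55), summed to 636.4, 636.5 and 981 CPM in Abca4KO and 473, 653 and 389 CPM in WT. The 12 fibroblast and scleral markers, 11 of them positive (median 0.20), summed to 2085, 2555 and 2178 CPM in Abca4KO and 2064, 2013 and 1765 CPM in WT without overlap. The 8 melanocyte markers, 5 of them positive (median 0.38), summed to 6634, 8563 and 8348 CPM in Abca4KO and 6136, 4507 and 7011 CPM in WT, with the genotypes overlapping through Abca4KO 1 and WT 3. No marker gene of these lists was at 0 throughout. Pmel is in both the RPE and the melanocyte list, so the melanocyte sum does not measure melanocytes alone. In bulk tissue fewer cells of a type and less RNA per cell cannot be told apart, and the part of these cells in the ER stress values was not tested.

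**Figure D4:**
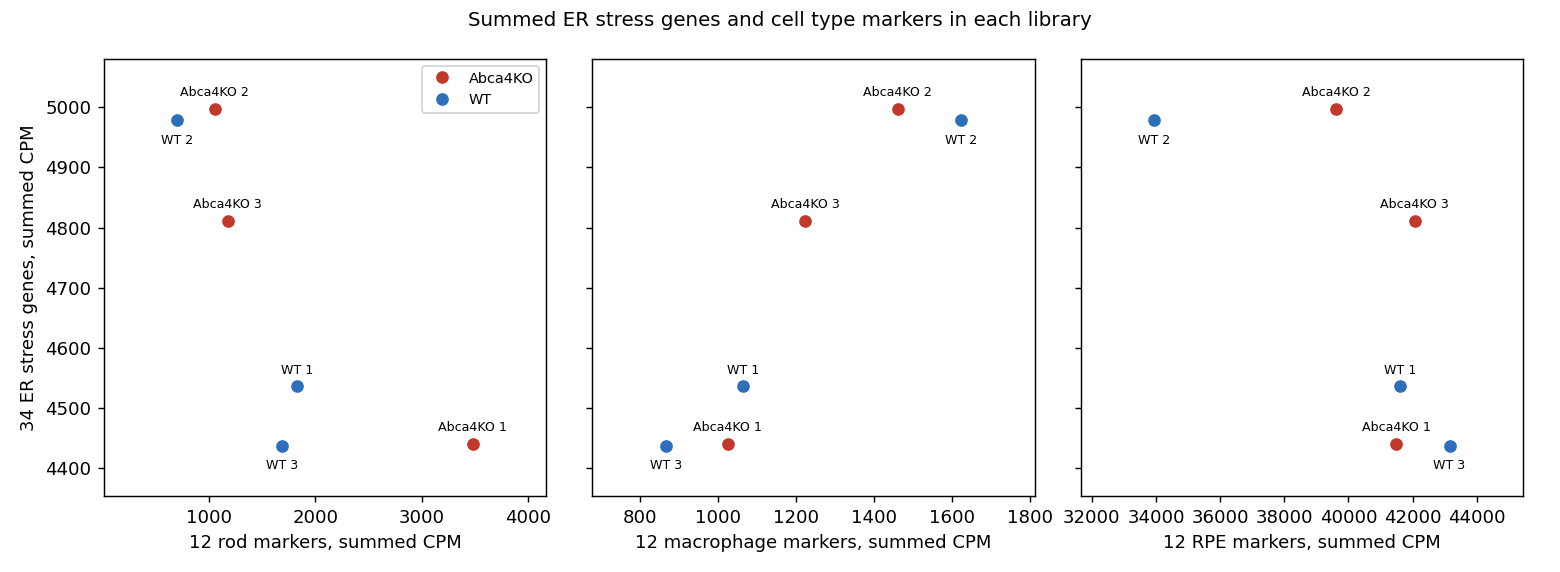
Summed CPM of the 34 ER stress genes (vertical axis, not starting at 0) against the summed CPM of 12 rod, 12 macrophage and 12 RPE markers (horizontal axes), with 1 point per library, Abca4KO in red and WT in blue. Libraries high in ER stress genes, Abca4KO 2 and WT 2, are low in rod markers and high in macrophage markers, in both genotypes.

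Leaving out both libraries that stood apart, WT 2 and Abca4KO 1, gave a higher median log2 fold change, 0.13. No member passed the adjusted threshold there, which 190 of the 17411 genes tested in that fit passed. In that fit 7 members, Sdf2l1, Manf, Pdia3, P4hb, Herpud1, Edem1 and Atf4, all higher in Abca4KO, were at an unadjusted p under 0.05, where 16.4% of all genes tested in that fit were. The genotypes did not overlap in 20 of the 34 members, 16 of them higher in Abca4KO, beside 48.2% of all genes. The smallest adjusted p of a member in that fit was 0.0735, for Edem1, which with all 6 libraries had 0.910. The log2 fold change of Edem1 was 0.658 there and 0.579 without WT 2 alone. Abca4KO 1 and WT 2 had the highest and the lowest summed rod markers, and their part in these values was not tested.

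Other genes of the pathway were read from lists of 97 tested genes. Of these, 0 passed the adjusted threshold in edgeR's quasi-likelihood test, and 5 higher and 6 lower genes in Abca4KO were at an unadjusted p under 0.05, beside 7.02% of all tested genes in either direction. The translocon and ER export list (22 tested) had a median log2 fold change of 0.06, with the receptors that return escaped ER proteins from the Golgi leading. Kdelr2 had 61.1, 66.3 and 66.1 CPM in Abca4KO, against 52.6, 57.4 and 51.2 CPM in WT (log2 fold change 0.26, SE 0.08, adjusted p = 0.616), and Kdelr3 had 9.03, 10.9 and 10.4 CPM in Abca4KO, against 8.22, 7.52 and 7.24 CPM in WT (log2 fold change 0.40, SE 0.17). In both genes all Abca4KO libraries lay above all WT libraries.

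The other folding enzymes (18 tested, median log2 fold change 0.04) were led by Pdia5, which activates ATF6 in human cells, at 8.07, 9.80 and 10.5 CPM in Abca4KO and 5.29, 7.57 and 3.16 CPM in WT (log2 fold change 0.82, SE 0.32, adjusted p = 0.701). Cnpy2 had a log2 fold change of 0.16 (SE 0.10). The other degradation and glycan trimming genes (19 tested, median -0.01) were led by Vcp, the p97 ATPase that pulls proteins out of the ER membrane, at 307, 305 and 324 CPM in Abca4KO and 359, 346 and 360.0 CPM in WT, and by the ubiquitin conjugating enzyme gene Ube2j1 at 96.0, 89.9 and 88.1 CPM in Abca4KO and 104, 102 and 107 CPM in WT. Neither gene had an Abca4KO library as high as any WT library, and the adjusted p was 0.691 for each.

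The other targets of ATF4 and CHOP (20 tested, median log2 fold change -0.05) had log2 fold changes of both signs. Psat1, an enzyme of serine synthesis, had 120.4, 112 and 109 CPM in Abca4KO, against 156, 128 and 177 CPM in WT (log2 fold change -0.43, SE 0.12, adjusted p = 0.616). Tnfrsf10b, a death receptor gene that CHOP induces, had 31.3, 29.6 and 30.5 CPM in Abca4KO, against 36.8, 36.3 and 41.1 CPM in WT (log2 fold change -0.32, SE 0.09, adjusted p = 0.616). On the positive side, and chosen after their values were seen, Slc7a5 and Slc3a2, the subunits of an amino acid transporter, had log2 fold changes of 0.30 (SE 0.09, adjusted p = 0.616) and 0.24 (SE 0.08, adjusted p = 0.641), with all Abca4KO libraries above all WT libraries. Gdf15, a stress-induced cytokine, had the highest of the list, 0.98, with an SE of 0.46 (adjusted p = 0.727) and overlapping libraries. Among the other regulators (15 tested, median -0.01), Map3k5, the kinase ASK1 that IRE1 activates, had a log2 fold change of -0.19 (SE 0.07) and Creb3 one of 0.22 (SE 0.10). The kinases of eIF2alpha other than PERK (3 tested) were each on the negative side, with Eif2ak2, an interferon-induced gene, at 29.3, 29.6 and 30.4 CPM in Abca4KO and 33.5, 62.2 and 28.4 CPM in WT, the high value being the library rich in interferon response genes. Eif2ak4, the amino acid sensor GCN2, had a log2 fold change of -0.19 (SE 0.10).

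Set beside their promoter elements, the members had these values, with no test made. The 9 with the ER stress response element had a median log2 fold change of 0.01, from -0.33 to 0.08, with 5 positive, and the 21 members whose window lacked it had one of 0.08. The 4 with the ATF4 element had a median of 0.15, the 26 members whose window lacked it one of 0.03, and 337 further tested genes with it one of -0.01. All 4 were positive with all libraries, but Chac1 turned negative in 4 and Asns in 3 of the 14 other settings. Outside the set, 11 further tested genes with the ER stress response element had a median of 0.03 and 0 at an unadjusted p under 0.05 in edgeR's quasi-likelihood test.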

How the data were processed

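The authors deposited unnormalized whole-number read counts as 1 table of genes with a column per library. Per the submitters' processing notes, STAR and HTSeq were used with mm10 (tool versions not given). The annotation release, strand setting and handling of shared reads are not given in the sources used here. The deposited table also gives each gene's position and its length in bases, which served for CPM per kilobase (an "other" unit per the file headers).

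Genes were filtered with filterByExpr (minimum count 10), scaled with TMM factors and compared, Abca4KO over WT, with the 2-sided quasi-likelihood test of edgeR 4.0.16 in R 4.3.3 over all 6 libraries without a covariate. P-values were adjusted by Benjamini-Hochberg over all tested genes with a threshold of 0.05. SEs were obtained by dividing each estimate by the root of its F statistic, and 95% intervals use the test's degrees of freedom. The scripts were checked on simulated counts. Alternatives used DESeq2 1.42.0 and limma 3.58.1. Replicates are separate mice per the study's design text, and no pair agreed within counting noise (chi-square per degree of freedom at least 12.6).

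The members and gene lists were chosen with earlier results of these data known. All 34 members were named, as were the 2 genes with the smallest p of each other pathway list. Partners that overlap a member are named above 3% of its counts. Of copies at least 90% identical over 200 bases of GENCODE M21 transcripts, that of Hsp90b1, 1810014B01Rik, had 900 counts and each other at most 99. Promoters are from RefSeq (GRCm38.p6), with no window for Hyou1, Atf6, Derl1 and Manf.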

Additional observations from a re-analysis of the deposited data

How the results depend on the processing

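No member passed the adjusted threshold in any of the 14 other settings, and 16 of the 34 kept the sign of their log2 fold change in all of them. The count at an unadjusted p under 0.05 is given with the share of all genes tested in the same fit. It was 1 in the main fit (7.02%) and 9 with limma-voom and sample weights (16.9%). Scaling that leaves out the 100 most abundant genes gave 2 (6.72%), and the fit without WT 2 and Abca4KO 1 gave 7 (16.4%). When single libraries were left out, it was 0 without Abca4KO 3 (4.26%), WT 1 (5.78%) or WT 3 (6.59%). It was 1 without Abca4KO 2 (4.53%), 2 without Abca4KO 1 (7.81%) and 3 without WT 2 (10.7%). Members without overlap, 4 in the main fit (12.8% of all genes), numbered 20 without WT 2 and Abca4KO 1 (48.2%). They numbered 5 to 10 without single libraries. In each of these reduced fits, fewer libraries make overlap rarer by construction. There were 10 without Abca4KO 1 or WT 2, beside 25.6% and 28.0% of all genes, and 7 without Abca4KO 3, beside 20.1%. Without Abca4KO 2 or WT 3 there were 6, beside 20.2% and 21.9%, and without WT 1 there were 5, beside 21.3%. Scaling that leaves out the 100 most abundant genes gave 5 (12.3%). The median of 0.04 became 0.13 without both WT 2 and Abca4KO 1. It was 0.0914 without Abca4KO 1, 0.0884 without WT 2, -0.00883 without Abca4KO 2 and -0.00996 without WT 3. With the replicate block the median was 0.035 and the count at an unadjusted p under 0.05 was 1, Herpud1 (6.89% of all genes). Same-numbered libraries correlated at 0.221, 0.382 and -0.0975 in their deviations from the genotype means. Libraries with different numbers correlated at between -0.411 and 0.347. With so few libraries these values cannot decide whether the numbers pair the mice. Some log2 fold changes turned sign. Syvn1 became 0.00128 with RLE factors, 0.00164 without a filter, 0.00116 in DESeq2, 0.0308 in limma-voom, 0.00621 without the abundant genes and 0.00516 without both libraries. Dnajb11 became -0.00121 with at least 1 CPM in 3 libraries and -0.00253 with the block, and Chac1 -0.392 in limma-voom and -0.400 with the block. Eif2ak3 became 0.0123 and Atf6 0.00855 in limma-voom, and Dnajb9 -0.0428 and Sel1l 0.021 without both libraries. When single libraries were left out, the log2 fold change ran from -0.00187 to 0.127 for Hspa5, -0.0148 to 0.113 for Hsp90b1, -0.0377 to 0.095 for Hyou1, -0.0244 to 0.118 for Dnajb9, -0.0828 to 0.0772 for Dnajb11, -0.0507 to 0.188 for Creld2, -0.0124 to 0.117 for Calr, -0.0177 to 0.0371 for Canx, -0.0207 to 0.0278 for Syvn1, -0.0115 to 0.102 for Selenos, -0.0448 to 0.111 for Os9, -0.113 to 0.0317 for Eif2ak3, -0.0308 to 0.27 for Ddit3, -0.113 to 0.00817 for Ppp1r15a, -1.18 to 0.623 for Chac1 and -0.199 to 0.466 for Asns. The cause of these turns was not tested.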

Other observations

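Chaperones outside the ER showed another order of libraries. The 12 cytosolic heat shock genes summed to 3490, 3581 and 3312 CPM in Abca4KO and 3298, 3240 and 3335 CPM in WT, with 10 of 12 log2 fold changes positive and a median of 0.07. Hsph1, an Hsp110 cochaperone, had 55.4, 82.5 and 49.5 CPM in Abca4KO, against 45.8, 49.9 and 40.8 CPM in WT (log2 fold change 0.46, SE 0.19, adjusted p = 0.706), and Hspa8, the constitutive Hsc70, had 870.4, 1002 and 847 CPM in Abca4KO, against 783, 841 and 785 CPM in WT without overlap (adjusted p = 0.761). The 12 immediate early genes, which mark recent stimulation of cells, summed to 289, 309 and 389 CPM in Abca4KO and 335, 537 and 254 CPM in WT. WT 2 was the highest library there, and 10 of 12 log2 fold changes were negative with a median of -0.22. Fos had 9.03, 7.79 and 11.5 CPM in Abca4KO, against 14.6, 18.7 and 8.76 CPM in WT (adjusted p = 0.759).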
